A study of Mus musculus with 2 samples.

Results

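The genes described here are the 4 interferon-induced transmembrane genes that the study's expression matrices carry as Ifitm1, Ifitm2, Ifitm3 and Ifitm6, 4 of the 27998 genes counted. They were chosen by gene name, and were followed through every cell class of control and allergic contact dermatitis (ACD) ear skin. Ifitm1, Ifitm2 and Ifitm3 were measured in nearly every class, whereas Ifitm6 gave 6 UMIs (unique molecular identifiers, each counted as 1 captured transcript) in the control library and 82 in the ACD library.

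The study profiled single cells of mouse ear skin, with 1 library of healthy control skin and 1 library of skin in which ACD had been elicited with 2,4-dinitrofluorobenzene (DNFB), a hapten that binds skin proteins and provokes a T cell response on re-exposure. Both libraries came from ICR mice, an outbred strain, labelled 7 to 8 weeks old, and the methods give male animals. In the ACD group 1.0% DNFB was painted on the back, 0.2% DNFB was painted on the ears at day 6, and the methods name 60 hr after elicitation as a sampling time for ear skin. The skin was digested with collagenase and DNase, dead cells were removed, and transcripts were captured at their 3' end. How many animals entered each library was not given in the sources used here. With 1 library per group there is no replicate, so no difference between control and ACD was tested: intervals are exact 95% intervals that cover counting error only, and animal, library and treatment cannot be told apart.

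The Ifitm genes encode small palmitoylated membrane proteins that sit in the plasma membrane and in endosomes and hinder enveloped viruses from fusing with the cell. IFITM3 is mostly endosomal and IFITM1 mostly at the cell surface. Their transcription is driven by type I interferons and by IFNγ, and several members are also present in stem cells and other cells without interferon exposure. Ifitm6 is a rodent member known from myeloid cells.

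The 4 genes lie on chromosome 7 of the GRCm38 build (GENCODE M21 annotation). Ifitm2 (ENSMUSG00000060591) spans chr7:140954837-140955987 on the minus strand and Ifitm1 (ENSMUSG00000025491) chr7:140967221-140969825 on the plus strand. Ifitm3 (ENSMUSG00000025492) spans chr7:141009586-141010770 and Ifitm6 (ENSMUSG00000059108) chr7:141015699-141017924, both on the minus strand. Ifitm2 and Ifitm3 have 1 annotated transcript each, and Ifitm1 and Ifitm6 have 3 each. The 220 bases from position -250 to -31 before each RefSeq start (GRCm38.p6) are shown 5′ to 3′ on the gene's own strand, because interferon-responsive elements would be sought there. Capitals mark the only match to either motif searched. The Ifitm1 window is chr7:140967826-140968045 on the plus strand, and its last 18 bases are exonic in GENCODE. The Ifitm2 window is chr7:140955992-140956211, the Ifitm3 window chr7:141010775-141010994 and the Ifitm6 window chr7:141016923-141017142, all on the minus strand and with no exonic base of the gene. The Ifitm1 and Ifitm6 windows lie within the span of longer transcripts of the same gene.
Ifitm1: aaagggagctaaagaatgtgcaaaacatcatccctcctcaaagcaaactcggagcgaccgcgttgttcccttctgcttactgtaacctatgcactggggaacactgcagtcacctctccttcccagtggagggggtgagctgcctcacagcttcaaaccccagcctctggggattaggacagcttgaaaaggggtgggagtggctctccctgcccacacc
Ifitm2: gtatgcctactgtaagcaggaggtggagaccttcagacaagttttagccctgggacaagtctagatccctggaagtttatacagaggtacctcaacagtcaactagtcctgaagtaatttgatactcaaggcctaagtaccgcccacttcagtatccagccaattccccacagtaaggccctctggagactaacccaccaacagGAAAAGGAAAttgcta
Ifitm3: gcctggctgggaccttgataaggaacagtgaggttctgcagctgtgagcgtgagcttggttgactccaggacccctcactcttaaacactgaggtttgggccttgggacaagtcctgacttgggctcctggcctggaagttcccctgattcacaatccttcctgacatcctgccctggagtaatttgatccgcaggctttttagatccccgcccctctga
Ifitm6: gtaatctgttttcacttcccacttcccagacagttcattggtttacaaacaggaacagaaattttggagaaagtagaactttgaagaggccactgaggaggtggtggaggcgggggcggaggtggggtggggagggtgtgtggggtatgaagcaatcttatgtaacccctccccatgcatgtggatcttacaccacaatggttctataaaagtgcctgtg
On both strands, the core of the interferon-stimulated response element (ISRE) was searched as TTTCNNTTTC, read as GAAANNGAAA on the other strand, and the gamma-activated site (GAS) as TTCNNNGAA. The Ifitm2 window held 1 ISRE core, GAAAAGGAAA, at positions -46 to -37. The other 3 windows held neither string, which says only that these letters are not in these windows. Of 32851 RefSeq promoters of 27025 genes, 2.63% held the ISRE core and 6.27% the GAS in the same window.

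The control library had 12895 barcodes and 99037698 UMIs, and the ACD library 13163 barcodes and 126566870 UMIs. After filtering, 12213 control and 11665 ACD cells remained, with medians of 6850 and 7447 UMIs. The libraries shared 50 barcode sequences, of which 47 were in kept cells. Cells were assigned to classes by marker gates, and a class name below means cells that passed that gate and not a sorted population. Every gate marker found in the annotation was detected in the ACD cells of its class except Calca in ILC2-gated and Folr2 in macrophage-gated cells. T cell receptor genes are not in the annotation of the files. Gates left 2.59% of control and 4.25% of ACD cells in no class, and 38.1% of control and 17.8% of ACD T/NK cells in no subset. A level is the UMIs of a gene per 1000000 UMIs of the class, with its interval from the Poisson distribution. Levels are compared between classes and libraries within 1 gene, not between genes.

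Over all kept cells, Ifitm1 stood at 115 UMIs per 1000000 in control and 355 in ACD, a 3.09-fold difference (log2 ratio 1.63). Ifitm3 stood at 834 in control and 1475 in ACD, 1.77-fold higher. Ifitm2 hardly differed, at 1012 and 982. These totals mix the level within classes with the classes' shares of the libraries. With the ACD mixture of classes and the control level in each class, Ifitm1 would stand at 171, Ifitm2 at 924 and Ifitm3 at 666. With the control mixture and the ACD levels they would stand at 247, 1077 and 1870. Ifitm3 thus differed more with the mixture held fixed than over the whole library, and Ifitm1 less. The 171 for Ifitm1 uses control levels of small classes, among them 7 basophils (3414) and 15 CD8+ T cells (436).

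The cells that carried the transcripts differed between the libraries for Ifitm1 in particular. In control, 51.9% of Ifitm1 UMIs came from fibroblasts, 33.7% from pericytes and 1.71% from T/NK cells. In ACD, fibroblasts held 31.1%, T/NK cells 30.2%, basophils 15.8% and pericytes 10.4%. Ifitm3 remained mostly stromal, with 56.5% of its control and 42.0% of its ACD UMIs in fibroblasts. Chondrocytes, which are the most numerous class in ear skin because of the ear cartilage, held 48.1% of control and 37.7% of ACD Ifitm2 UMIs.

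**Figure D1:**
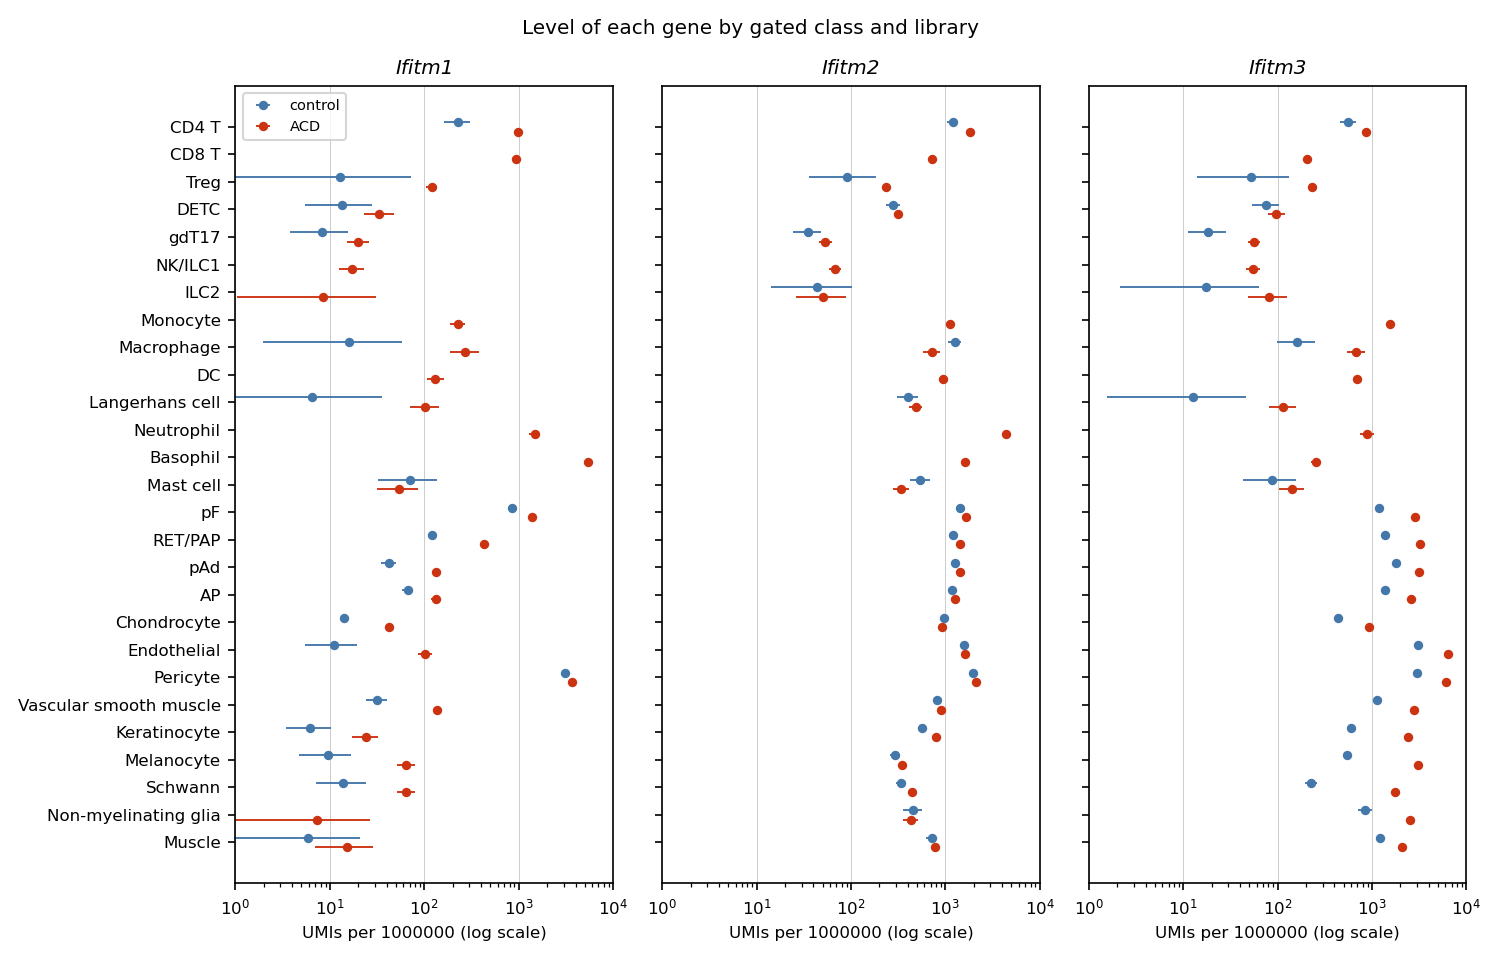
UMIs per 1000000 class UMIs (log axis) of Ifitm1, Ifitm2 and Ifitm3 in each gated class of the control and the ACD library, with bars for exact 95% Poisson intervals. Classes with fewer than 20 cells or no UMI are not drawn. Ifitm1 spans a wide range in ACD, from 7.32 in nonmyelinating glia, on 2 UMIs, to 5373 in basophils, whereas Ifitm2 pairs lie close together in most classes and Ifitm3 points lie to the right in ACD.

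T and NK cells as a whole (740 control, 3301 ACD) were higher in ACD for all 3 expressed members. Ifitm1 stood at 57.0 in control and 494 in ACD (log2 ratio 3.12, interval 2.90 to 3.34). Ifitm2 stood at 194 and 666 (1.78, 1.66 to 1.90), and Ifitm3 at 63.6 and 307 (2.27, 2.07 to 2.48). All 3 thus passed a 2-fold difference, taken after adding 10 UMIs per 1000000 on both sides, as did 1.34% of the 10549 genes with at least 50 UMIs in this class. Another 1.49% were at least 2-fold lower, none of them a member. The subsets that carry the genes were scarce in control: 31 CD4+ and 15 CD8+ T cells against 600 and 642 in ACD, so that the values for all T/NK cells mix subsets in different proportions.

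Within ACD, the members split the T and NK subsets into classes with and without them. Conventional CD4+ T cells had 986 Ifitm1 UMIs per 1000000 (956 to 1017), 1813 of Ifitm2 (1773 to 1854) and 858 of Ifitm3 (830 to 887). CD8+ T cells had nearly the same Ifitm1, 936 (910 to 962), but 715 of Ifitm2 and 205 of Ifitm3. CD4+ cells were thus 1.05-fold (1.01 to 1.10), 2.54-fold (2.44 to 2.64) and 4.19-fold (3.91 to 4.48) above CD8+ cells for the 3 genes. Over 12 other settings the CD4+ levels ran from 818 to 1008, 1447 to 1834 and 710.5 to 860.5. The CD8+ levels ran from 803 to 996, 635 to 1006 and 174.5 to 413, so that the Ifitm1 ranges overlapped.

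Regulatory T cells (Treg, 336 cells gated on a Foxp3 UMI), which restrain the response, were far below conventional CD4+ cells. Treg with a Cd4 UMI but no captured Foxp3 UMI could pass the CD4+ gate, and their number was not measured. The Treg level of Ifitm2 was 235 and that of Ifitm3 233, against which the CD4+ levels were 7.71-fold (7.02 to 8.49) and 3.68-fold (3.34 to 4.07) higher. The Treg level of Ifitm1 was 120, but 1 cell held 148 of its 237 UMIs, and without that cell it was 45.3. For Ifitm3 the Treg and CD8+ levels were close, 233 against 205, and their order turned with Leiden clusters in place of gates, 182 against 413.

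The innate-like lymphocytes were lower still. IL-17-type γδ T cells (446 cells) had 19.97 Ifitm1, 53.5 Ifitm2 and 56.5 Ifitm3 UMIs per 1000000. NK/ILC1 cells (496 cells), cytotoxic innate lymphocytes that respond to and produce IFNγ, had 17.1, 67.7 and 55.2. These classes did not differ beyond counting error for Ifitm1 (γδ over NK, 1.17-fold, 0.777 to 1.77) or for Ifitm3 (1.02-fold, 0.814 to 1.29). Dendritic epidermal T cells (DETC, 164 cells), the γδ T cells that reside in mouse epidermis, differed from both in Ifitm2, at 319, 5.96-fold (4.90 to 7.28) above the IL-17-type γδ cells. The CD4+ level of Ifitm1 was 57.6-fold (42.8 to 79.4) that of NK/ILC1 cells. Over 12 other settings the Ifitm1 level ran from 818 to 1008 in CD4+ and from 10.6 to 33.0 in NK/ILC1 cells.

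The contrast was also present between cells at equal depth. With every cell thinned to 2000 UMIs, an Ifitm1 UMI was found in 37.4% of ACD CD4+ cells (33.5 to 41.5%), 30.3% of CD8+ cells, 3.08% of Treg and 2.70% of NK/ILC1 cells. Without thinning the shares were 45.3%, 38.6%, 5.95% and 5.65%, at median depths of 5876, 6580, 4916 and 4329 UMIs. Ifitm2 was found in 60.7% of CD4+, 42.6% of CD8+, 15.7% of Treg and 8.32% of NK/ILC1 cells after thinning, and Ifitm3 in 47.4%, 18.9%, 19.1% and 8.94%. Free RNA was not measured, and a share as low as that of NK/ILC1 or IL-17-type γδ T cells (1.82% for Ifitm1 and 7.05% for Ifitm2) cannot be told apart from it. The Ifitm1 share of Treg was of that size.

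The CD4+ and CD8+ subsets were not uniform. The summed UMIs of Ifitm1, Ifitm2 and Ifitm3 at 2000 UMIs per cell were 0 in 31.9% of CD4+ cells and 5 or more in 46.2%, with a median of 3 and a highest value of 32. In CD8+ cells 47.3% were at 0 and 23.4% at 5 or more, with a highest value of 37. In NK/ILC1 cells 82.1% were at 0 and 0.416% at 5 or more. The members were found together: of CD4+ cells with an Ifitm1 UMI, 97.3% also had Ifitm2 and 77.9% Ifitm3, against 38.8% and 29.1% of CD4+ cells without Ifitm1. All 3 were found in 170 of 593 CD4+ cells (28.7%) and 62 of 636 CD8+ cells (9.75%). In CD8+ cells, 78.2% of those with Ifitm1 had Ifitm2, against 27.1% of those without.

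**Figure D2:**
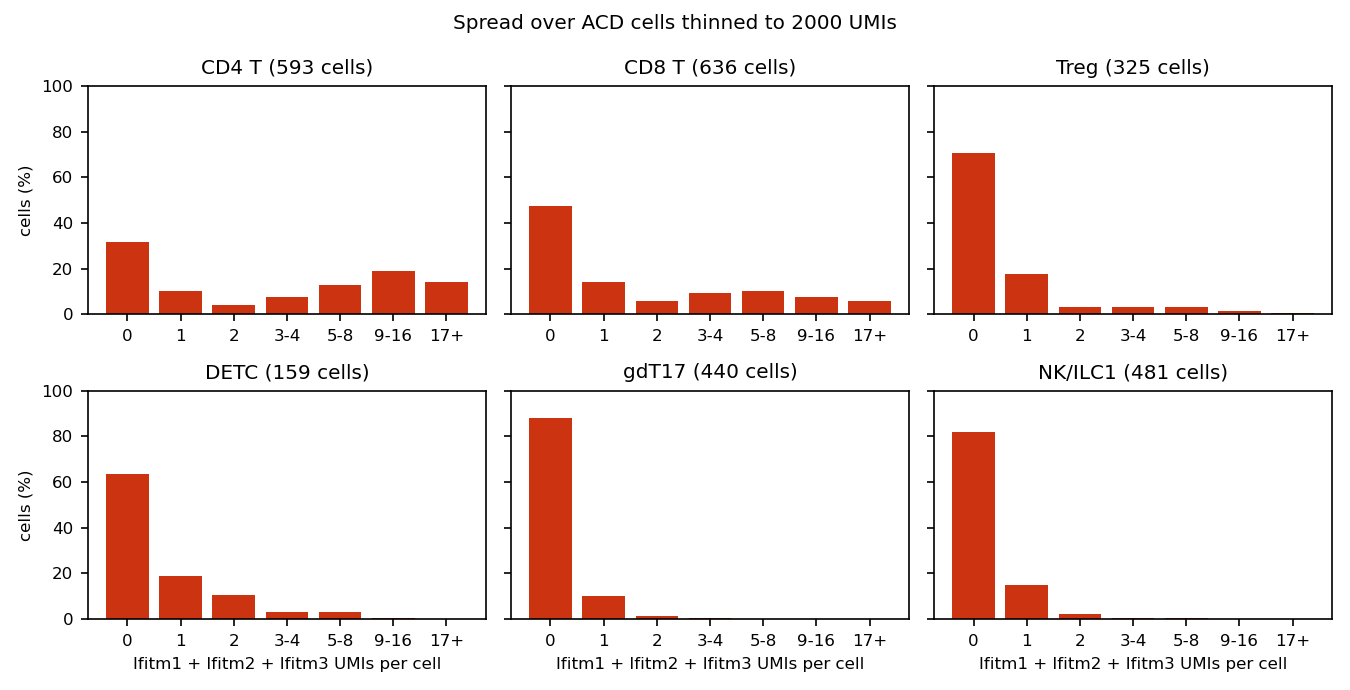
Percent of ACD cells of 6 T and NK subsets by the summed UMIs of Ifitm1, Ifitm2 and Ifitm3 per cell, every cell thinned to 2000 UMIs. CD4+ cells spread from 0 to 32, with 46.2% at 5 or more, whereas 82.1% of NK/ILC1 and 88.0% of IL-17-type γδ T cells are at 0.

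The members also went with Ifng, the cytokine gene of type-1 T cells. ACD CD4+ cells with an Ifng UMI (270) had 1309 Ifitm1, 2203 Ifitm2 and 1056 Ifitm3 UMIs per 1000000. Those without (330) had 631, 1384 and 641, which gives log2 ratios of 1.05 (0.96 to 1.15), 0.67 and 0.72. CD8+ cells with an Ifng UMI (437) had 1109 Ifitm1 against 467 in those without (205), a log2 ratio of 1.25, and ratios of 0.68 for Ifitm2 and 0.48 for Ifitm3. Cells with an Ifng UMI were deeper, with medians of 6708 against 5190 UMIs in CD4+ and 7326 against 5558 in CD8+ cells, and the part of depth in these differences was not tested.

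RNA of other cells was measured beside these values. In ACD CD4+ cells with an Ifitm1 UMI the 7 fibroblast markers, all of them found, summed to 482 UMIs per 1000000, against 353 in CD4+ cells without. Basophil and pericyte markers, of the classes highest in Ifitm1, also moved with it there: 5 of 7 basophil markers (Grm6 and Fcer1a at 0) summed to 11.7 against 1.502, and 4 of 6 pericyte markers (Colec11 and Vtn at 0) to 19.4 against 2.50. Their part in the CD4+ values was not tested. In CD8+ cells the fibroblast markers summed to 341 against 256, and none of the 7 basophil markers was found in those with Ifitm1. Treg were different: those with an Ifitm3 UMI (108) had 1308 fibroblast and 1923 chondrocyte marker UMIs per 1000000, and those without (228) had 305 and 129. How far stromal RNA made up the Treg Ifitm3 level was not tested. It was 211 once T and NK cells with over 1000 stromal marker UMIs per 1000000 were left out, a setting chosen after the data were seen.

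CD4+ cells could be compared between the libraries, whereas CD8+ cells were under 20 cells and Treg (22 cells) under 100000 UMIs in control. Ifitm1 stood at 227 in control (163 to 306) and 986 in ACD (log2 ratio 2.12, 1.68 to 2.60). Ifitm2 stood at 1192 and 1813 (0.60, 0.41 to 0.80) and Ifitm3 at 561 and 858 (0.61, 0.33 to 0.91). Ifitm1 alone passed 2-fold, as did 4.49% of 6589 genes. The control values rest on few cells: 1 of the 31 cells held 59 of 104 Ifitm3 and 18 of 42 Ifitm1 UMIs. Without the cell highest in each library the ratios were 2.83 for Ifitm1 and 1.60 for Ifitm3. The control CD4+ cells held 1629 fibroblast marker UMIs per 1000000 and the ACD cells 421, and without cells high in stromal markers, 8 of 31 in control and 33 of 600 in ACD, the Ifitm3 ratio was 2.17. IL-17-type γδ T cells, with 221 control cells, had Ifitm3 at 18.3 in control and 56.5 in ACD (1.63, 0.96 to 2.38), an ACD level that did not differ from NK/ILC1 cells. That ratio was 1.03 without T and NK cells high in stromal markers. DETC had 280 and 319 for Ifitm2 and 75.7 and 97.3 for Ifitm3, with intervals of the ratio that span 0.

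Among the myeloid cells and granulocytes of ACD skin, each member had its own leading class. Basophils (246 cells), rare IgE-binding granulocytes, had the highest Ifitm1 level of all 27 classes, 5373 UMIs per 1000000 (5233 to 5516). Ifitm1 was found in 96.7% of basophils after thinning, and 71.1% of them had 5 or more UMIs of it. Mast cells (141 cells), which share the IgE receptor with basophils, had 53.9, so that the basophil level was 99.7-fold (62.2 to 171) higher. Basophils were 4.76-fold (3.91 to 5.83) above mast cells for Ifitm2, 1628 against 342, and 1.77-fold (1.29 to 2.49) for Ifitm3, 253 against 143. The 7 control basophils had 66 Ifitm1 UMIs, 3414 per 1000000 (2641 to 4344), and their number allowed no comparison.

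Neutrophils (66 cells in ACD), the first granulocytes to enter inflamed skin, had the highest Ifitm2 level, 4417 (4101 to 4751), with 1480 of Ifitm1 and 881 of Ifitm3. Monocytes (87 cells), the blood-derived precursors of macrophages, had the highest Ifitm3 among the myeloid classes, 1565, with 1131 of Ifitm2 and 225 of Ifitm1. Against monocytes, neutrophils were 6.57-fold (5.24 to 8.26) higher for Ifitm1, 3.90-fold (3.496 to 4.36) higher for Ifitm2 and 0.563-fold (0.468 to 0.673) for Ifitm3. Over 12 other settings the Ifitm3 level ran from 841.6 to 1694 in monocytes and from 743.6 to 1297 in neutrophils, so that these ranges overlapped. Dendritic cells (74 cells), which carry antigen to lymph nodes, had 131, 944 and 697.

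Mononuclear phagocytes as a whole (68 control, 289 ACD cells) had 8.16 Ifitm1 UMIs per 1000000 in control and 169 in ACD (log2 ratio 4.37, 3.001 to 6.25, on 4 control UMIs). Ifitm3 stood at 95.9 and 832 (3.12, 2.70 to 3.57), and Ifitm2 at 651 and 887 (0.45, 0.27 to 0.62). These ratios mix subsets in different proportions, since control had 3 monocytes and 15 dendritic cells against 87 and 74 in ACD. In macrophages (22 control, 27 ACD cells) Ifitm3 stood at 161 and 683 (2.09, 1.37 to 2.87), while Ifitm2 was lower in ACD, 1260 against 722 (-0.80, -1.19 to -0.42). The gated macrophages also differed in their own markers: Mrc1 stood at 1132 and 103, Cd163 at 763 and 31.7, C1qa at 3123 and 1730, and Folr2 was at 0 in ACD, so that a change of macrophage kind and a change within it cannot be told apart. Langerhans cells, the dendritic cells of the epidermis, had 6.43 and 103 for Ifitm1 on 1 control UMI, and 405 and 489 for Ifitm2.

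Ifitm6 was found mostly in 3 of these classes. Of its 82 ACD UMIs, 27 were in monocytes (52.0 per 1000000, 34.3 to 75.7), 24 in neutrophils (147, 94.1 to 218) and 15 in dendritic cells (20.8, 11.6 to 34.2). Macrophages and Langerhans cells had none, which with 3 UMIs as the limit allows up to 23.8 and 9.06 per 1000000. T/NK cells had 5 Ifitm6 UMIs in 3301 cells and fibroblasts 5 in 1942. Of the 6 control UMIs, 2 came from 1 of the 4 control neutrophils. The longest run of bases that an Ifitm6 transcript shares with another gene was between 25 and 50, with Ifitm2. Whether any Ifitm6 read was placed with the wrong gene was not measured.

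In dermal fibroblasts (3949 control, 1942 ACD cells), which produce the collagen matrix, Ifitm1 stood at 178 in control and 542 in ACD (log2 ratio 1.61, 1.56 to 1.65). Ifitm3 stood at 1409 and 3044 (1.11, 1.09 to 1.13) and Ifitm2 at 1248 and 1467 (0.23, 0.21 to 0.26). Ifitm1 and Ifitm3 passed 2-fold, as did 0.913% of 12491 genes in fibroblasts, and 0.136% were at least 2-fold lower. The 3 genes split the fibroblast subtypes differently.

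Among the fibroblast subtypes, Ifitm1 was highest in peri-follicular fibroblasts (pF, which surround hair follicles and include the dermal papilla). It stood at 846 there in control and 1392 in ACD (0.72, 0.65 to 0.79). Reticular and papillary fibroblasts (RET/PAP), the main matrix producers, had 119 and 433 (1.86, 1.77 to 1.94). Preadipocytes (pAd) had 41.9 and 134 (1.68, 1.37 to 1.99), and adipocyte progenitors (AP) 66.7 and 132 (0.99, 0.74 to 1.24). In ACD the pF level was 3.21-fold (3.07 to 3.36) that of RET/PAP, 10.5-fold (9.41 to 11.8) that of AP and 10.4-fold (9.28 to 11.7) that of pAd cells. With Leiden clusters in place of gates the pAd ratio was 0.15, no longer 2-fold, so that the order of the ratios depends on how subtypes are set. After thinning, Ifitm1 was found in 79.6% of ACD pF, 40.4% of RET/PAP, 15.9% of AP and 14.9% of pAd cells.

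Ifitm3 showed no such order. In control it was highest in pAd cells, 1812, against 1381 in AP, 1386 in RET/PAP and 1181 in pF cells. In ACD it stood at 3127 in pAd, 2572 in AP, 3246 in RET/PAP and 2887 in pF cells, with log2 ratios of 0.79 in pAd, 0.90 in AP, 1.23 (1.20 to 1.26) in RET/PAP and 1.29 (1.23 to 1.34) in pF cells, the last of which was 0.97 with Leiden clusters. Ifitm2 lay between 1188 and 1447 in control and between 1276 and 1660 in ACD, with log2 ratios of 0.10 to 0.23. RET/PAP and pAd cells did not differ in ACD Ifitm2 beyond counting error (1420 against 1437, 0.988-fold, 0.9505 to 1.03).

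Fibroblasts of the ACD library with a Cxcl9 UMI, the IFNγ-induced chemokine that attracts T cells, had more Ifitm3 than the others: 4040 (407 cells) against 2651 (1535 cells), a log2 ratio of 0.61 (0.58 to 0.63). Their ratios were 0.17 for Ifitm1 and 0.15 for Ifitm2. Ifitm3 was higher with Cxcl9 in each subtype, at 0.97 in pF, 0.66 in AP, 0.48 in RET/PAP and 0.47 in pAd cells. Ifitm1 was higher with Cxcl9 in pF (2632 against 1255, 1.07) and RET/PAP cells (0.41), while its intervals spanned 0 in AP and pAd cells. Fibroblasts with a Cxcl9 UMI were deeper, with medians of 13858 against 8326 UMIs, and the part of depth was not tested.

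Endothelial cells and pericytes held the highest Ifitm3 levels of the ranked classes in both libraries. Endothelial cells (144 control, 127 ACD cells), which line the vessels, stood at 3094 in control and 6350 in ACD (1.04, 0.98 to 1.10). Their own markers also differed: Mmrn1 stood at 1588 and 689, Lyve1 at 1345 and 788, and Egfl7 at 796 and 1044. A change in the mixture of endothelial cells and a change within them cannot be told apart. Pericytes (250 and 107 cells), which wrap capillaries, stood at 3029 and 6078, 2.01-fold higher (log2 interval 0.94 to 1.07). In ACD the pericyte level was 0.957-fold (0.926 to 0.989) the endothelial level, and Ifitm3 was found in 100% of pericytes and 99.2% of endothelial cells after thinning. Vascular smooth muscle cells had 1119 and 2785 (1.32, 1.24 to 1.39).

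Ifitm1 separated pericytes from both neighbours. Pericytes had 3070 in control and 3666 in ACD (0.26, 0.19 to 0.32), whereas smooth muscle cells had 31.4 and 137 and endothelial cells 11.0 and 102. The ACD pericyte level was 26.7-fold (23.9 to 29.9) that of smooth muscle and 36.0-fold (30.4 to 42.8) that of endothelial cells. In endothelial cells the log2 ratio of Ifitm1 was 3.22 (2.34 to 4.25), and both Ifitm1 and Ifitm3 passed 2-fold, as did 2.97% of 5623 genes. The 21 ACD endothelial cells with an Ifitm1 UMI held 430 pericyte marker UMIs per 1000000 (5 of 6 markers found, Kcnj8 at 0) and the 106 without held 3.34, so that pericyte markers moved with endothelial Ifitm1, and their part in it was not tested. Endothelial Ifitm1 also went with Cxcl9: 424 in the 21 ACD cells with a Cxcl9 UMI against 15.3 in the 106 without (log2 ratio 4.80, 4.06 to 5.62). Cells with Cxcl9 were deeper, with medians of 14990 against 9988 UMIs. The overlap of these groups of cells was not measured. Ifitm2 was close in the libraries for both, at 1574 and 1623 in endothelial cells and 1959 and 2125 in pericytes.

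The epidermis and the nerves showed large differences in Ifitm3 on low Ifitm1. Keratinocytes (172 and 130 cells), the epithelial cells of the epidermis, had 597 Ifitm3 UMIs per 1000000 in control and 2408 in ACD (2.01, 1.93 to 2.10). Melanocytes (228 and 202 cells), the pigment cells, had 546 and 3073 (2.49, 2.37 to 2.61). Schwann cells (260 and 278 cells), which myelinate axons, had 227 and 1734 (2.93, 2.72 to 3.15), and 2.33 with Leiden clusters. At 2000 UMIs per cell, 16.5% of control Schwann cells had an Ifitm3 UMI and 73.5% of those in ACD, and the shares in melanocytes were 55.1% and 88.8%. Nonmyelinating glia already had 848 in control and reached 2556 (1.59), above Schwann cells in both libraries. Muscle-lineage cells had 1221 and 2054 (0.75, 0.59 to 0.91).

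In the same classes Ifitm1 reached at most 64.1. Melanocytes had 9.46 in control and 64.0 in ACD (log2 ratio 2.76), and 1 cell held 34.5% of the ACD UMIs. In melanocytes Ifitm1 and Ifitm3 passed 2-fold, as did 1.57% of 6492 genes. Chondrocytes (5539 and 3935 cells) had 14.2 and 42.6 for Ifitm1 (1.58, 1.45 to 1.71), 436 and 925 for Ifitm3 (1.09, 1.06 to 1.11) and 958 and 918 for Ifitm2 (-0.06, -0.08 to -0.04). Their Ifitm1 and Ifitm3 passed 2-fold, as did 0.495% of 13331 genes.

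In all, 20 classes had at least 20 cells and enough UMIs in both libraries to be compared, taking the subsets in place of their parent classes. Ifitm3 had at least 50 UMIs in 18 of them and was at least 2-fold higher in ACD in 12, and its interval lay above 0 in 18 of the 20, all but DETC and mast cells. Its log2 ratios ran from 0.36 in DETC to 3.16 in Langerhans cells, with a median of 1.26. The Langerhans value rests on 2 control UMIs (1.21 to 6.26) and is below the 50-UMI minimum, and that of DETC was 1.85 once cells called as doublets were left out. Ifitm1 had enough UMIs in 13 and was at least 2-fold higher in 9, with a median of 1.77 over the classes with a ratio. The 9 include chondrocytes, keratinocytes, melanocytes and Schwann cells, with ACD levels of at most 64.1, where the part of free RNA was not tested. Ifitm2 had enough UMIs in 19 and passed 2-fold in none, with a median of 0.19 and a range of -0.80 to 0.62. T/NK cells that fell in no subset (282 control, 587 ACD) are not among the 20. They were at least 2-fold higher for all 3 genes, as were 3.05% of the 6951 genes with enough UMIs there. Their levels were 83.4 and 345 for Ifitm1, 110 and 545 for Ifitm2 (log2 ratio 2.31) and 24.8 and 308 for Ifitm3 (3.64). This remainder was 38.1% of control and 17.8% of ACD T/NK cells and may mix subsets in different proportions, so that these ratios are not those of 1 cell type. No member was at least 2-fold lower in any of these classes. Over all genes, 1.79% of 111182 gene-by-class pairs were at least 2-fold higher and 0.807% at least 2-fold lower. Ifitm6 had enough UMIs in none of them.

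**Figure D3:**
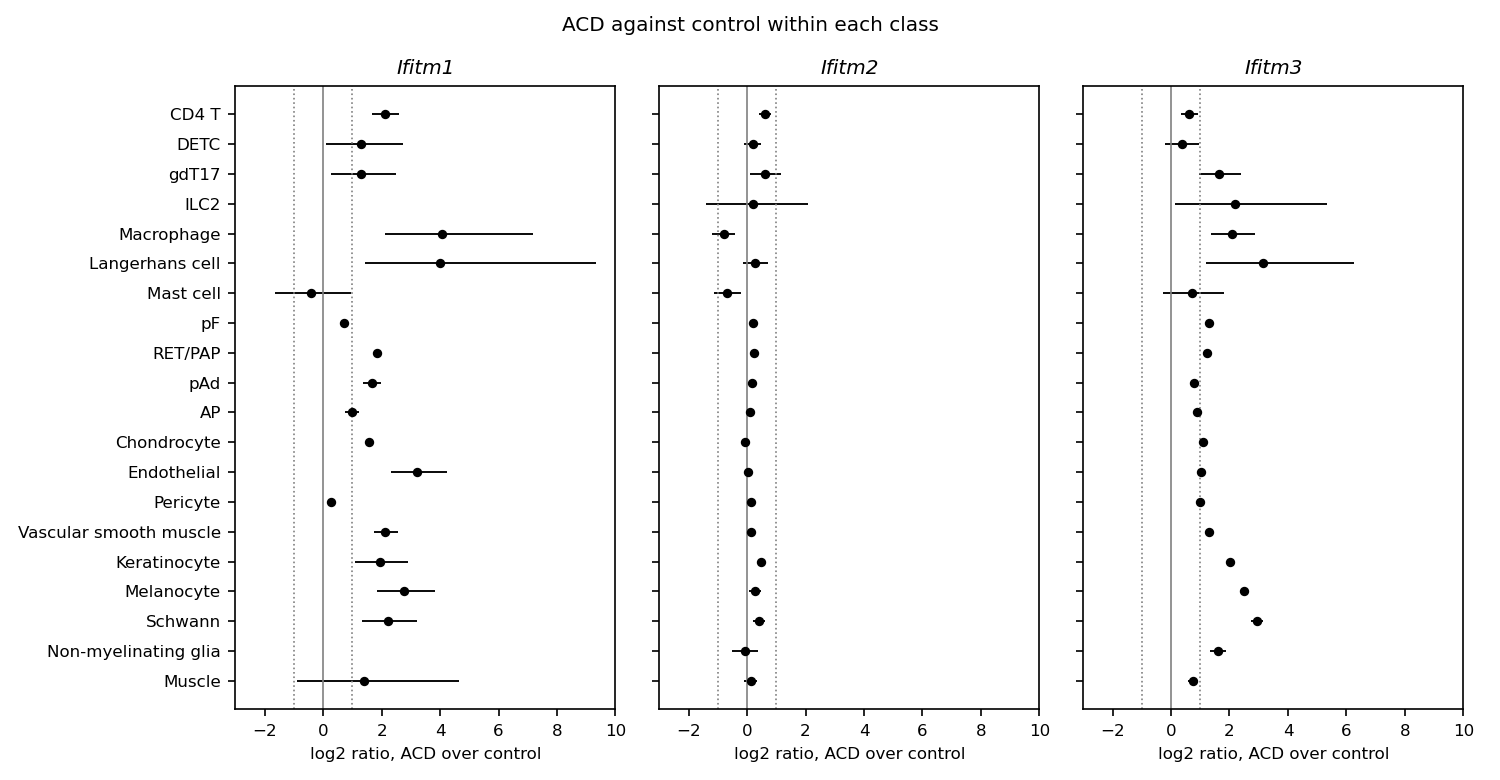
Log2 ratio of ACD over control for Ifitm1, Ifitm2 and Ifitm3 in 20 gated classes, with exact 95% intervals that cover counting error only and dotted lines at 2-fold. Ifitm2 lies within the dotted lines in all classes, the Ifitm3 points lie above 0 throughout, and the wide Ifitm1 intervals belong to classes with few control UMIs.

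Set in order, the ACD levels of Ifitm1 ran from basophils over pericytes (3666), neutrophils (1480) and pF cells (1392) to CD4+ (986) and CD8+ T cells (936), with nonmyelinating glia lowest of 27 classes on 2 UMIs. Neutrophils and pF cells, and 17 other pairs of neighbours in this order, were not apart beyond counting error. Ifitm2 ran from neutrophils over pericytes, CD4+ T cells (1813), pF cells (1660), basophils (1628) and endothelial cells (1623), the last 3 being neighbours not apart beyond counting error, down to ILC2 (51.1), an 86.4-fold range. Ifitm3 ran from endothelial cells and pericytes over RET/PAP (3246), pAd (3127) and melanocytes (3073) down to NK/ILC1 cells (55.2), a 115-fold range. The lowest places of Ifitm2 and Ifitm3 were held by γδ T, ILC2 and NK/ILC1 cells.

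**Figure D4:**
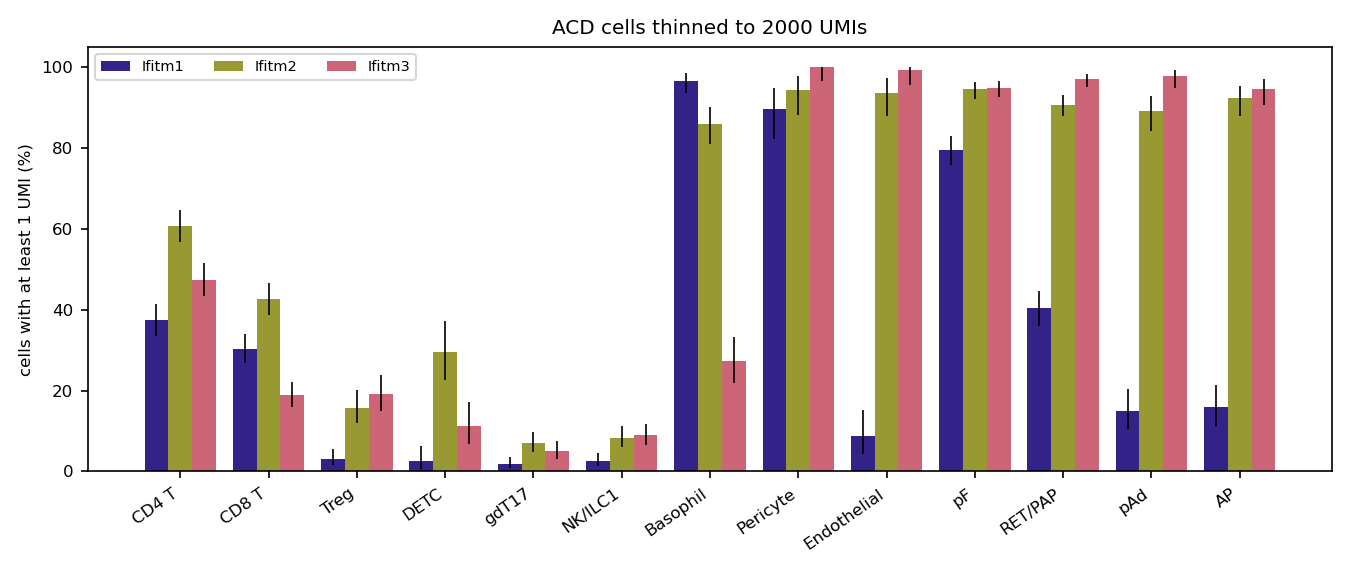
Percent of ACD cells with at least 1 UMI of Ifitm1, Ifitm2 or Ifitm3 in 13 gated classes after thinning every cell to 2000 UMIs, with exact 95% binomial intervals. Bars start at 0. Basophils and pericytes are highest for Ifitm1 (96.7% and 89.7%), and NK/ILC1 cells stay at 2.70%, 8.32% and 8.94%.

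The genes around the members in the interferon pathway were read from lists of interferon ligands, receptors, response genes and trafficking partners. Of 12 ligand genes only Ifng had 50 UMIs in T/NK cells, at 28.3 in control and 289 in ACD (2.96 after adding 10 UMIs per 1000000, as are the ratios in the rest of this paragraph). In fibroblasts Ifng had 12 control and 130 ACD UMIs and did not pass 2-fold (0.66). Of 17 receptor and signalling genes, 16 were measurable in T/NK cells, 3 higher and 1 lower. Irf8 (3.004), a transcription factor of the interferon response, was highest, and Ifngr2, a chain of the IFNγ receptor, was lowest at -1.63, with 90.3 UMIs per 1000000 in control and 22.3 in ACD. T/NK cells mix subsets in different proportions between the libraries, here and in the lists below. In CD4+ cells alone, with 31 cells in control, 1 of 13 measurable receptor and signalling genes was higher and none lower. In fibroblasts all 17 were measurable and 2 were higher, among them the transcription factor gene Irf7 (1.62), while Ifnar1 and Jak1 stood at -0.08 each.

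Other antiviral interferon-stimulated genes came next. In T/NK cells 2 of 21 measurable genes passed 2-fold, Ifi27l2a (1.70) and Zbp1 (1.58), and Oasl2 (0.06) and Eif2ak2 (-0.39) were lowest. In fibroblasts 9 of 25 passed, led by Bst2 (3.07), which tethers budding viruses, and Zbp1 (2.21), with Trim25 (0.13) and Dhx58 (0.10) lowest. The list's median was 0.38 in T/NK cells and 0.48 in fibroblasts, beside -0.09 and 0.00 over all genes tested. The GTPases and chemokines known as IFNγ targets passed in 9 of 15 in T/NK cells (median 1.19), with Gbp2 (2.10) and Gbp3 (2.06) highest. They passed in 13 of 15 in fibroblasts (median 2.20), with Cxcl9 (5.40) and Iigp1 (4.86) highest. Tgtp1 and Tgtp2 were lowest in both classes, at 0.28 to 0.44, on 1 to 4 control UMIs each. In CD4+ cells alone, 1 of 12 measurable antiviral genes and 3 of 10 measurable IFNγ targets passed (medians 0.30 and 0.85). Among other residents, 16 of 18 measurable antiviral genes passed in melanocytes (median 2.27), 11 of 14 in endothelial cells (1.39) and 6 of 23 in chondrocytes (0.34), and the IFNγ targets passed in 11 of 11, 13 of 13 and 11 of 14.

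Of 10 genes whose products modify or move IFITM3, none was higher in T/NK cells and Nedd4, a ubiquitin ligase that acts on IFITM3, was lower there (83.1 against 36.1 UMIs per 1000000, -1.01). In fibroblasts none passed in either direction, and Zdhhc3 and Zdhhc20, palmitoyltransferases, stood at -0.21 each. In CD4+ cells 1 of 9 measurable partners was higher, Zdhhc7, on 0 control and 58 ACD UMIs, and none was lower. Of 12 housekeeping genes only B2m, itself induced by interferons, passed, at 1.40 in T/NK cells and 2.75 in fibroblasts. In CD4+ cells alone, none of 11 measurable housekeeping genes was higher and 1 was lower. Among the other family members, Ifitm10 had 50 UMIs in T/NK cells and Ifitm5 and Ifitm10 in fibroblasts, with levels of at most 6.37 UMIs per 1000000, and none passed 2-fold.

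Likeness of pattern was described by Pearson's r of log2(UMIs per 1000000 + 10) over 47 points, each a class in 1 library with at least 30 cells, among 10364 genes. Points of 1 library share its depth and free RNA, so r is a description. The genes nearest to Ifitm1 were Plac8 (0.65), Arhgap15 (0.58), Rasgrp2 (0.58), Ccl3 (0.55) and Slc16a3 (0.54). Those nearest to Ifitm2 were Hmox1 (0.67), Cebpb (0.66), Myof (0.66), Snai1 (0.65) and Cdc42ep2 (0.65). Those nearest to Ifitm3 were Ltbr (0.84), Irf1 (0.81), Marcks (0.80), Id3 (0.80) and Socs3 (0.80). With Spearman's rho as the measure, 1 of the 5 nearest genes was shared for Ifitm1, 4 for Ifitm2 and 0 for Ifitm3. Among the members themselves r was 0.77 for Ifitm2 with Ifitm3, 0.60 for Ifitm1 with Ifitm2 and 0.29 for Ifitm1 with Ifitm3.

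Reads can be shared between these paralogs and their copies. Ifitm1 and Ifitm3 transcripts each hold a run of at least 75 bases that is also in the pseudogene Gm7676, and Ifitm2 overlaps Gm45717, with which it shares at least 200 bases and which was not counted. How many Ifitm1 and Ifitm3 reads were set aside or placed with a copy was not measured.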

How the data were processed

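Mouse ear skin cells of 1 control and 1 ACD library were captured with a 3' single-cell kit. The deposited matrices hold counts of UMIs per gene and barcode, which the authors made with Cell Ranger 3.1.0 on mm10 per the submitters' processing notes and file headers. The control library held 99037698 and the ACD library 126566870 UMIs, and no other per-sample column was used. The members and gene lists were chosen with earlier results of these data known, and gate thresholds were set after the files were seen.

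A barcode was kept if it had 201 to 4999 genes, no more than 25000 UMIs and a mitochondrial share below 8%, which left 23878. The UMI figure stands as a minimum in the published methods and was taken here as a maximum, and the cell total they state is smaller. The authors' cell labels were not used. Classes came from marker scores per cell (class score of at least 0.15 with a margin of 0.05, chondrocytes above 2000 UMIs of cartilage markers per 1000000). Subsets of mononuclear phagocytes and of fibroblasts needed a subset score of at least 0.1. T/NK subsets were gated on UMIs. CD4+, CD8+ and Treg cells needed a Cd3 UMI and a UMI of Cd4, of Cd8a or Cd8b1, or of Foxp3. The γδ, NK/ILC1 and DETC gates needed at least 2 of their markers and the ILC2 gate 3. Doublets were left out only in an alternative setting. Of fibroblasts and chondrocytes, 7.43% lay near the cut on cartilage markers, and 4.65% of all kept cells lay near a class margin.

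Counts were summed per class and library. Intervals are exact Poisson for levels, exact conditional for ratios and exact Clopper-Pearson binomial for shares, at 95%, and cover counting error only. An at least 2-fold difference was taken after adding 10 UMIs per 1000000 and needed 50 UMIs over both libraries. Classes were compared with 20 cells and 100000 UMIs in both libraries. A level of 0 was given the limit that 3 UMIs allow. Cells were thinned to 2000 UMIs for shares, leaving out shallower cells. With 1 library per group, no p-value was computed. The 4 members were named in every class, other pathway genes as the highest and lowest of each list, and the 5 genes of closest pattern for each member. One pathway gene that this rule names is not reported here. The scripts were tested on simulated data. Python 3.11.15, numpy 2.4.6, scipy 1.17.1, pandas 2.3.3, scanpy 1.11.5, scikit-learn 1.9.0 and matplotlib 3.10.9 were used. Gene positions are GENCODE M21 and promoters RefSeq.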

Additional observations from a re-analysis of the deposited data

Results flagged for a closer look

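Ifitm2 was lower in ACD in 3 of the 20 compared classes, with intervals of the log2 ratio below 0, while in 11 classes the intervals lay above 0. The ratios were -0.80 in macrophages (1260 UMIs per 1000000 in control, 722 in ACD), -0.67 in mast cells (545 and 342) and -0.063 in chondrocytes (958 and 918). The macrophage value rests on 22 control and 27 ACD cells. The chondrocyte value lies near the median log2 ratio of all genes in that class, -0.048, and ran from -0.11 to -0.015 over 13 other settings. Differences between classes in this ratio were not tested, since each condition is 1 library.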

How the results depend on the processing

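In CD4+ T cells, fibroblasts and endothelial cells the Ifitm1 and Ifitm3 ratios kept their direction under all 13 settings, whereas Ifitm2 ratios close to 0, such as that of endothelial cells (-0.01 to 0.10), did not, and 94 of 117 log2 ratios of these classes stayed within the interval of the main value. Leaving out the cell highest in each library gave 2.83 for Ifitm1 and 1.60 for Ifitm3 in CD4+ T cells. The mean over cells gave 1.25 for Ifitm3 in CD4+ cells and 1.41, 0.18 and 1.05 for Ifitm1, Ifitm2 and Ifitm3 in fibroblasts. Keeping all barcodes gave 1.47 for Ifitm1 and 1.08 for Ifitm3 in fibroblasts. Leiden clusters in place of gates gave 1.45, 0.99 and 2.06 for Ifitm1, Ifitm2 and Ifitm3 in CD4+ cells, 1.68 and 1.09 for Ifitm1 and Ifitm3 in fibroblasts and 1.61 for Ifitm1 in endothelial cells. A lower limit of cartilage markers for chondrocytes gave 1.13 for Ifitm3 in fibroblasts, and a higher limit gave 1.52, 0.21 and 1.07 for the 3 genes. Leaving out T and NK cells with stromal markers gave 2.17 for Ifitm3 in CD4+ cells. Thinning to 2000 UMIs gave 1.31 for Ifitm3 in CD4+ cells and 1.29, 0.17 and 1.05 for the 3 genes in fibroblasts. The causes of these moves were not tested. With size factors set by the median gene in place of total UMIs, the median log2 ratio of all genes, -0.15 in T/NK cells and -0.11 in DETC, became the zero point, and the T/NK ratios of the members were higher by that much. Of the 13 settings other than the main one, Ifitm3 was at least 2-fold higher in 12 in endothelial cells, 9 in pericytes and 5 in CD4+ cells. Ifitm1 was so in 5 in adipocyte progenitors. The chondrocyte limits, the stromal-marker exclusion and the exclusion of shared barcodes were chosen after seeing the data. No paired analysis was possible because the labels hold 1 library per group, and for the same reason no replicate could be left out.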
